A study of Mus musculus with 15 samples.

Results

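Milk protein and alveolar differentiation genes were followed across 15 mammary tumours of 4 p53-null BALB/c mouse models. The genes were chosen by symbol from a list of 9, of which 7 are among the 17271 gene symbols of the deposited table: the caseins Csn1s1, Csn2 and Csn3, the whey protein gene Lalba, the milk fat gene Btn1a1, and the transcription factors Elf5 and Stat5a. Csn1s2a and Wap were not analysed here. The models were 2208L (8 samples), 2225L (2 samples), 2151R (4 samples) and T11 (1 sample), all labelled p53 null and strain Balbc. Of the 2208L samples, 4 were titled PBS, 3 were titled 3day nt and 1 carried the prefix ROSEN. Of the 2151R samples, replicates 3 and 4 were titled NT2 and NT. The titles of 2151R replicates 1 and 2 carry codes that the labels do not explain. The 2225L samples were titled T-Vivo and ROSEN. No title names a drug, and age is not given in the labels. As background, these are transplantable tumour lines kept in syngeneic mice, so the samples of a model share 1 origin and their spread is that between tumours of 1 line, or smaller if samples were technical repeats; p-values measure only that spread. Each value is a log2 ratio to a reference level of the same gene that the sources used here do not state, so samples can be compared for a gene, while levels of different genes cannot be ranked. Depth is unknown because the table holds no counts, and T11, with 1 sample, carries no test.

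In the mammary gland, ductal epithelium gives rise in pregnancy to alveoli, whose luminal cells make milk. Prolactin binds its receptor on these cells, the kinase Jak2 phosphorylates Stat5, and Stat5 dimers enter the nucleus and bind the promoters of milk protein genes. The Ets family factor Elf5 acts with Stat5 to set the alveolar fate of luminal progenitors, and caseins, alpha-lactalbumin and butyrophilin are products of the differentiated cell.

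The 3 casein genes of the table lie on mouse chromosome 5 in the RefSeq annotation of GRCm38.p6, at chr5:87666208-87682578 (Csn1s1), chr5:87692619-87699429 (Csn2) and chr5:87925579-87932550 (Csn3). In that annotation Csn1s2a lies between Csn2 and Csn3. Lalba is at chr15:98480400-98482934, Btn1a1 at chr13:23456984-23465914, Elf5 at chr2:103412098-103450989 and Stat5a at chr11:100859351-100885169. All 7 are protein-coding genes. RefSeq promoter windows of GRCm38.p6, from 250 bases before to 50 bases after a start, were matched by symbol for 5 of the 7 genes (7 windows, as Elf5 and Stat5a have more than 1 start); Csn3 and Btn1a1 had no entry. They were searched on both strands for TTCNNNGAA, the letters of the site class that Stat5 dimers bind and reads as itself on the other strand. A match stood in the windows of Csn1s1 (bases 151 to 159, counted from 1 at the 5′ end of the window) and Csn2 (bases 158 to 166). The windows of Lalba, Elf5 and Stat5a held none. Of 32851 promoter windows of this length, 8.30% held a match. AGGAAG, a core of the Ets class that Elf5 binds, was searched likewise and stood in the windows of Lalba and Stat5a, and in 35.4% of all windows, and it overlapped no TTCNNNGAA match. The NFI palindrome, searched by its full letters, stood in 12 of all windows and in none of these genes. The windows of Csn1s1 (chr5:87665958-87666257, plus strand), Csn2 (chr5:87699376-87699675, minus strand) and Lalba (chr15:98482634-98482933, minus strand) are shown, with the TTCNNNGAA match in capitals. These are the milk protein genes analysed here that had a window. A match describes letters and is not a measured binding site.
Csn1s1: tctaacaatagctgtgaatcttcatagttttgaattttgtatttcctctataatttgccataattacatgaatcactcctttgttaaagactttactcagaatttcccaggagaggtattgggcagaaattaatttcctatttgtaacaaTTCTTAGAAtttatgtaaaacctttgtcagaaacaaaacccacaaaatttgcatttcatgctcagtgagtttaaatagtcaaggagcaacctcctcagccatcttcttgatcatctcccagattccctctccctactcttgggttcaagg
Csn2: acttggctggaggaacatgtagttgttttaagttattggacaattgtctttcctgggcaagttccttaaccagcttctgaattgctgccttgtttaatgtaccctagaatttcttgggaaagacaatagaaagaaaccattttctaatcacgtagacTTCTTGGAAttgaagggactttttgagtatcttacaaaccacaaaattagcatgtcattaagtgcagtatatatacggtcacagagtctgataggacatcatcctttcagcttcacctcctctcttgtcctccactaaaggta
Lalba: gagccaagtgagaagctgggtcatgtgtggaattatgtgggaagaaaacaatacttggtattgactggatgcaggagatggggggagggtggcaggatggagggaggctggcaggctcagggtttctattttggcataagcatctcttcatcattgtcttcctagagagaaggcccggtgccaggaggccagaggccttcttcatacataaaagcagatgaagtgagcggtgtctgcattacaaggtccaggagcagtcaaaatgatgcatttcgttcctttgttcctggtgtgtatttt

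Some libraries stood apart before any comparison of these genes. Skeletal muscle markers (12 genes) were high in 2151R replicate 3 and in 2208L replicates 6 and 8, which are titled 3day nt; the list level was 5.37, 8.80 and 8.17 in these, against -4.68 in the lowest 2208L sample. A list level averages its genes after each was set to a mean of 0 across the 15 samples. The adipocyte markers in the table (10 of 12) ranged from -3.98 to 1.88 in 2208L, from 0.80 to 3.84 in 2151R, and were -3.59 and 1.24 in 2225L. The 12 epithelial markers were high in 2208L (1.76 to 2.34) and in 2225L (2.43 and 2.58), low in 2151R (-3.92 to -3.15) and lowest in T11 (-7.28). All samples are bulk tumour RNA, in which fewer cells of a type and less RNA per cell cannot be told apart.

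**Figure D1:**
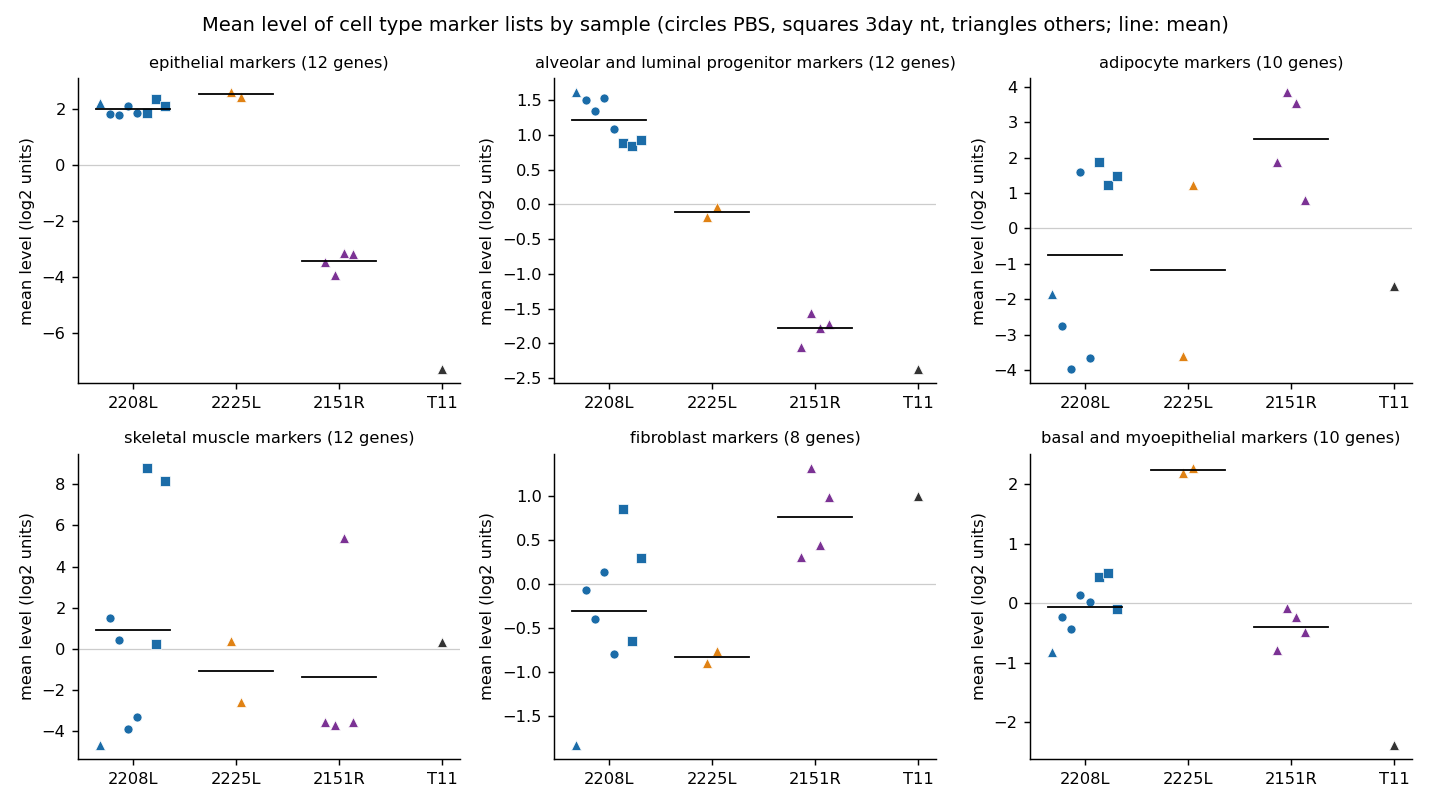
Mean level of 6 cell type marker lists (y axis, log2 units) in each sample of the 4 models (x axis); circles are 2208L samples titled PBS, squares those titled 3day nt, triangles all other samples, and a line marks the mean of a model with more than 1 sample. Epithelial markers are high in 2208L and 2225L and low in 2151R and T11, muscle markers are high in 3 samples, and basal markers are highest in 2225L (2.18 and 2.27).

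Of the milk protein genes, Csn3, Csn1s1 and Lalba had their highest mean in 2208L, as did Csn2, whose highest single value was in 2151R. Csn3, which encodes kappa-casein, the casein that keeps milk micelles in suspension, ranged over the 8 samples of 2208L from 4.32 to 7.25 with a median of 6.46. Its values were 2.95, 3.54, 3.58 and 2.35 in 2151R, 1.97 and 3.66 in 2225L, and -3.98 in T11. Every sample of 2208L lay above every sample of the other models, the samples of 2151R and 2225L overlapped, and T11 was lowest. With limma on all genes and Benjamini-Hochberg adjustment, Csn3 was lower in 2151R than in 2208L (3.11 ± 0.58, SD, n = 4, against 6.11 ± 1.13, SD, n = 8; difference -3.004, SE 0.58, adjusted p 0.000772) and lower in 2225L than in 2208L (2.82 ± 1.20, SD, n = 2; difference -3.29, SE 0.75, adjusted p 0.00447). Without 2225L replicate 1 the second difference was -2.45 and was not called (limma adjusted p 0.0777); with a trend in the spread model and with array weights it was not called either (limma adjusted p 0.058 and 0.0632). Cell type marker lists in the same comparisons are given after Elf5.

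Csn1s1, which encodes an alpha casein, was also highest in 2208L and lowest in T11, with the mean of 2225L above that of 2151R. Its 2208L samples ranged from 2.66 to 4.08 with a median of 3.73. In 2151R the values were 2.44, 0.66, 0.13 and -4.23, in 2225L -0.04 and 1.62, and in T11 -5.21. No sample of another model reached the range of 2208L, and within 2151R the values were widely spread, with replicate 1 highest and replicate 4 lowest. Csn1s1 was lower in 2151R than in 2208L (difference -3.83, SE 0.89, limma adjusted p 0.00298), and without 2151R replicate 4 the difference was -2.50 and still called. The difference of 2225L from 2208L was -2.79 (SE 1.15, 95% interval -5.27 to -0.31) and was not called (limma adjusted p 0.0795), although a fit of those models alone called it (limma adjusted p 0.00218), as did quantile normalization (-3.22, limma adjusted p 0.0441).

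Csn2 encodes beta-casein, the most studied target of prolactin and Stat5, and its spread within models was wide. In 2208L it ranged from 0.88 to 3.59 with a median of 2.43. The 2151R samples were at 5.24, 0.44, -0.19 and -3.13, the 2225L samples at 1.52 and 0.48, and T11 at -3.13. The highest of the 15 values was 2151R replicate 1, and 2151R replicate 4 shared the exact lowest value with T11, so that value is a repeated one and is not read as a measured level. Csn2 was not called in any of the 4 comparisons. For 2151R against 2208L the difference was -1.66 (SE 1.15, 95% interval -4.16 to 0.83, limma adjusted p 0.252). Without 2151R replicate 1 it was -3.21 and was called (limma adjusted p 0.00769), and in samples titled NT, nt or PBS it was -4.10 and was called (limma adjusted p 0.00664). Both of these fits keep 2151R replicate 4 at the repeated lowest value, so their sizes depend on a value that is not read as a measured level. Without replicate 4 the difference was -0.42.

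Lalba encodes alpha-lactalbumin, the whey protein that turns galactosyltransferase into lactose synthase. Its 2208L samples ranged from 3.16 to 5.94 with a median of 4.80. It was at 1.49, 3.01, 2.64 and 1.59 in 2151R, at 3.46 and 1.10 in 2225L, and at -0.72 in T11. All 2208L samples were above all 2151R samples, while 2225L replicate 1 lay within the range of 2208L. Lalba was lower in 2151R than in 2208L (difference -2.61, SE 0.56, limma adjusted p 0.00172). Against 2208L it was also lower in 2225L (difference -2.51, SE 0.72, limma adjusted p 0.0169), but that call was lost without 2225L replicate 2 (difference -1.33, limma adjusted p 0.299), without the ROSEN samples of both models (-1.17) and with array weights (-2.62).

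**Figure D2:**
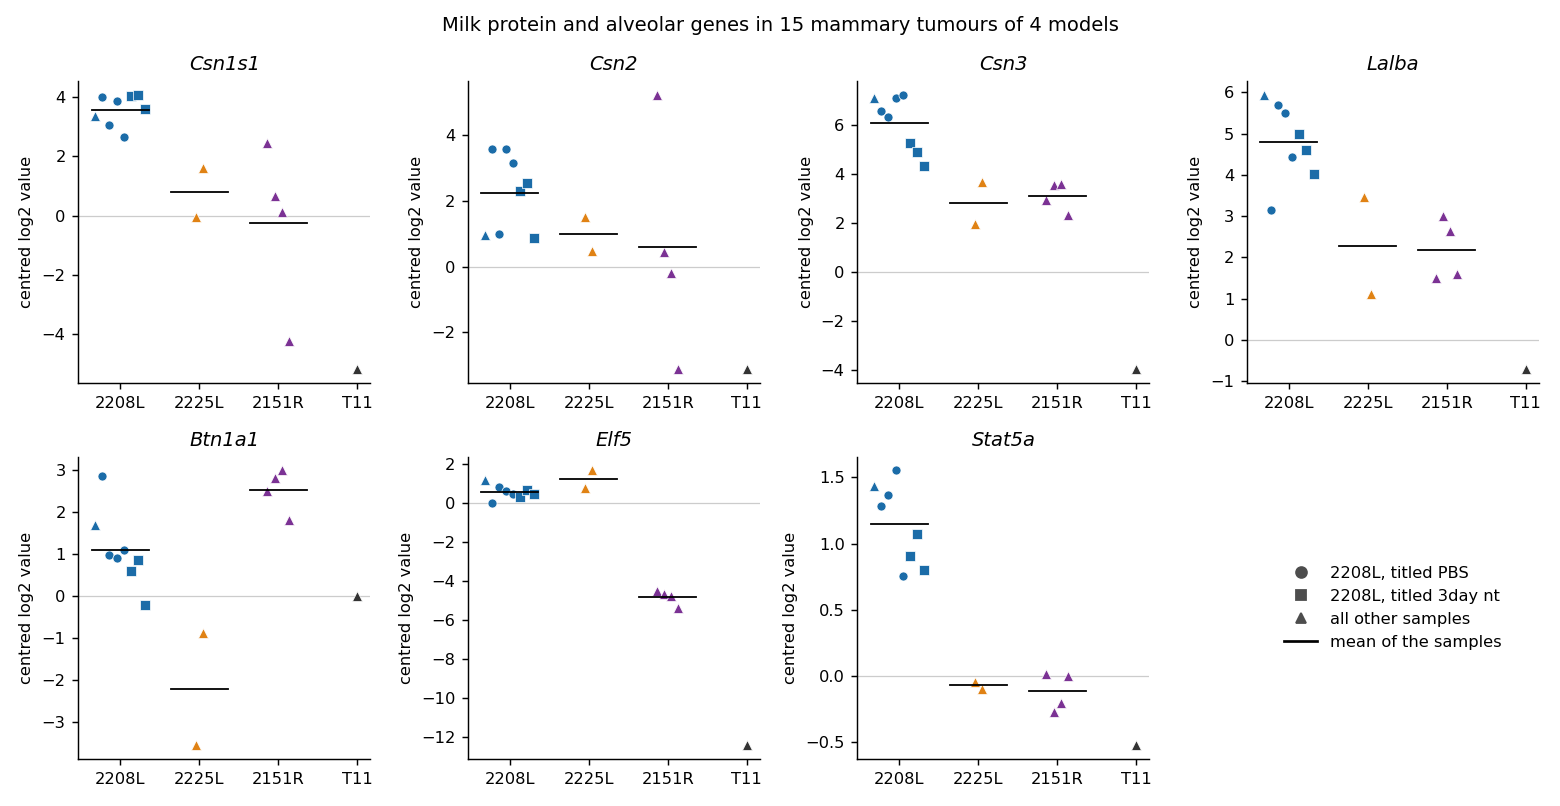
Centred log2 value (y axis) of each of the 7 genes in each sample of the 4 models (x axis); circles are 2208L samples titled PBS, squares those titled 3day nt, triangles all other samples, and a line marks the mean of a model with more than 1 sample. Csn3 and Csn1s1 are higher in every 2208L sample than in the other models, Csn2 is highest in 2151R replicate 1 (5.24), Btn1a1 is lowest in 2225L, and Elf5 is low in 2151R and lowest in T11 (-12.42).

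Btn1a1, which encodes butyrophilin, a membrane protein of the milk fat globule, did not share the order of the milk protein genes. The 8 samples of 2208L ranged from -0.21 to 2.86 with a median of 0.93. Its values were 2.50, 2.80, 2.98 and 1.80 in 2151R, -3.55 and -0.87 in 2225L, and 0.00 in T11. Both 2225L samples lay below all other samples, and 2151R overlapped 2208L only through 2208L replicate 2 (2.86). Btn1a1 was lower in 2225L than in 2208L (difference -3.30, SE 0.70, limma adjusted p 0.00288) and than in 2151R (difference -4.73, SE 0.77, limma adjusted p 0.000231). The first of these was not called without 2225L replicate 1 (difference -1.97, limma adjusted p 0.0779) or with array weights (-3.48, limma adjusted p 0.0838). Btn1a1 was higher in 2151R than in 2208L by 1.43 (SE 0.54, limma adjusted p 0.0432), a call lost under 14 of 22 alternatives, with limma adjusted p-values from 0.0102 to 0.216 over all 22. The libraries whose removal ended it were 2151R replicates 1, 2 and 3 and 2208L replicates 3 to 8, each left out alone, with differences from 1.24 to 1.43, and without the 3 samples high in muscle genes the difference was 0.97.

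Elf5, the alveolar Ets factor, divided the models sharply. It was at -4.52, -4.68, -4.76 and -5.40 in 2151R and at -12.42 in T11. The 2225L samples were at 0.76 and 1.65, and the 2208L samples ranged from 0.00 to 1.16 with a median of 0.53. No 2151R sample came within 4 log2 units of the lowest sample of 2208L or 2225L, which overlapped each other. Elf5 was lower in 2151R than in 2208L (difference -5.39, SE 0.23, limma adjusted p 6.89e-10) and higher in 2225L than in 2151R (difference 6.05, SE 0.33, limma adjusted p 1.75e-08). Between 2225L and 2208L the difference was 0.66 (SE 0.30, 95% interval 0.0018 to 1.31) and was not called (limma adjusted p 0.116), except without 2225L replicate 1, where it was 1.10 (limma adjusted p 0.0424). T11 lay below the mean of 2208L by a difference of -12.97 on the deposited values and of -8.54 after quantile normalization. T11 is 1 sample and the scaling between samples is not stated, so the size of this difference is uncertain.

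Epithelial markers moved with Elf5. In 2151R against 2208L, 11 of the 12 epithelial markers were lower and 1 (Krt19) was higher, with a median difference of -6.47, against 0.10 over all genes. In 2225L against 2208L, 0 of the 12 were lower and 1 (Krt19, a luminal keratin, difference 5.67, limma adjusted p 0.00282) was higher, and the median difference was 0.085. Fibroblast markers (8 genes) ranged from 0.32 to 1.32 in 2151R and from -1.83 to 0.85 in 2208L, with 3 of 8 higher in 2151R. Of the 8 endothelial markers, 6 were higher in 2151R and 0 were lower (median difference 1.01 from 2208L), with list levels from 0.37 to 1.03 against -1.08 to 0.41. Of the 10 adipocyte markers, 3 were higher and 0 lower in 2151R (median 3.97), and of the 10 basal markers 2 were higher and 5 lower (median -0.65). These counts for 2151R stand beside 26.1% (higher) and 22.7% (lower) of all genes. The 3 adipocyte and 2 basal markers that were higher are near the first of these shares. Basal markers in 2225L against 2208L had 4 of 10 higher and 0 lower (median 1.66), among them Krt5, a basal keratin, by 9.81 (limma adjusted p 0.000212). Over all genes, 15.6% were higher and 17.3% lower in 2225L than in 2208L. The part that these markers have in the differences of Elf5 and the caseins between 2208L and the other models was not tested.

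Stat5a encodes the prolactin-activated transcription factor named for its role in the mammary gland. Its 2208L samples ranged from 0.76 to 1.55 with a median of 1.18. It was at 0.019, -0.27, -0.20 and 0.00017 in 2151R, at -0.04 and -0.10 in 2225L, and at -0.52 in T11. All 2208L samples lay above all others, T11 was lowest, and the 2225L samples lay within the range of 2151R. Stat5a was lower than in 2208L both in 2151R (difference -1.26, SE 0.17, limma adjusted p 3.71e-05) and in 2225L (difference -1.22, SE 0.22, limma adjusted p 0.000918). Between 2225L and 2151R the difference was 0.04 (95% interval -0.47 to 0.56, limma adjusted p 0.896). The calls against 2208L held under all 22 and all 21 alternatives tried.

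**Figure D3:**
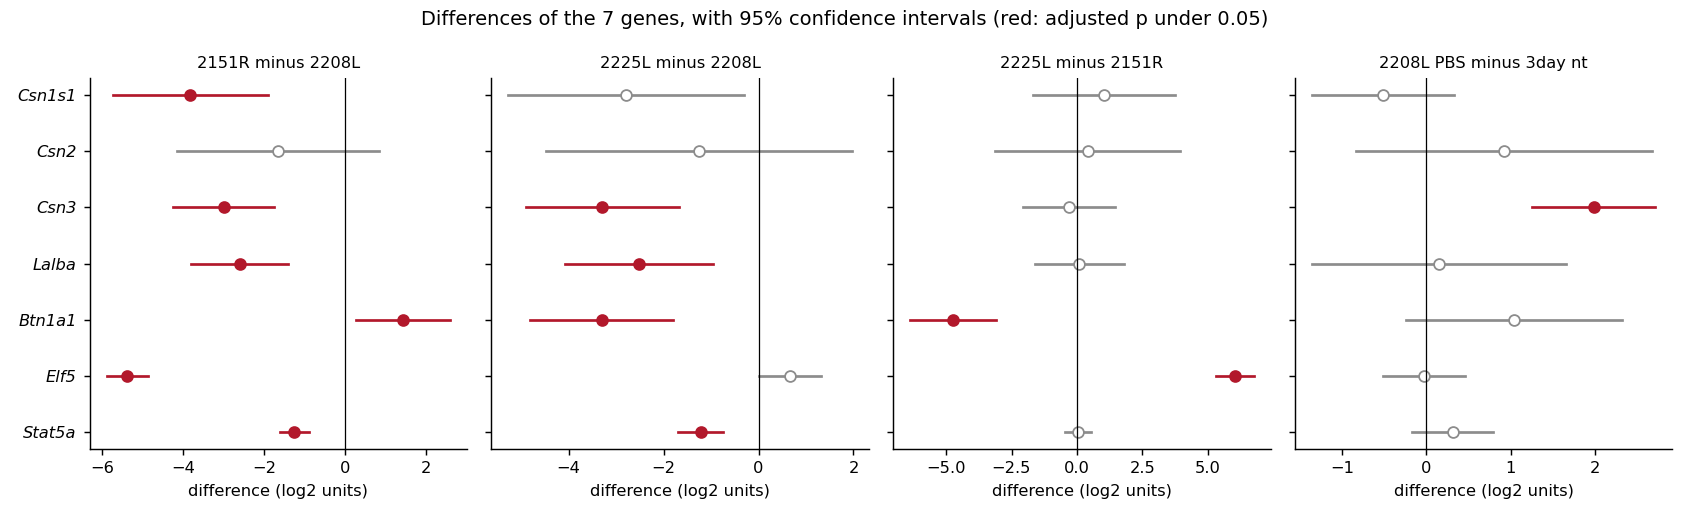
Difference in mean log2 value (x axis, log2 units) of each of the 7 genes in 4 comparisons (panels), with the limma 95% confidence interval as a line; filled red points have an adjusted p under 0.05 over all genes, open grey points do not. In 2151R minus 2208L, 5 genes are lower and Btn1a1 is higher; in 2225L minus 2151R only Btn1a1 and Elf5 are called, in opposite directions.

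Counted together, 6 of the 7 genes were called between 2151R and 2208L, beside 48.8% of all 17271 genes; 5 were lower and 1 was higher, beside 22.7% and 26.1%. The median difference of the 7 was -2.61, against 0.10 over all genes. These models did not overlap at those 5 lower genes, beside 18.2% of all genes that did not overlap and were lower, 20.6% that were higher and 38.8% in either direction. Model and library number range cannot be told apart in this comparison, because the 4 libraries of 2151R share a range that holds no other model. In 2225L against 2208L, 4 of 7 were called (32.9% of all genes), 4 lower and 0 higher, beside 17.3% and 15.6%, with a median difference of -2.51 against -0.04. The samples did not overlap at 4 of the 7 (Btn1a1, Csn1s1, Csn3 and Stat5a), all lower in 2225L, beside 31.7% of all genes, 16% lower and 15.7% higher. With array weights only Stat5a of the 7 was lower in this comparison. The comparisons of 2151R and of 2225L with 2208L share the 8 samples of 2208L, so they are not independent of each other. Between 2225L and 2151R, Elf5 was higher and Btn1a1 lower, 2 of 7 called beside 48.6% of all genes, 22.8% higher and 25.8% lower. The same 2 genes did not overlap between these models, beside 62.4% of all genes, 28.9% higher and 33.4% lower. For Csn3, Csn1s1 and Lalba the order of model means is therefore 2208L first, 2225L and 2151R next without a called difference between them, and the T11 value last.

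The signalling genes upstream of Stat5 and its feedback targets are shown by a list of 20 genes, of which 19 are in the table. In 2151R against 2208L, 6 were higher, 4 lower and 9 not called, near the background of 26.1% and 22.7% of all genes, with a median difference of 0.064 against 0.10. In 2225L against 2208L, 1 was higher, 10 lower and 8 not called, beside 15.6% and 17.3% of all genes, with a median of -1.11 against -0.04. Socs2 and Cish, which encode inhibitors that Stat5 induces and that dampen cytokine signalling, were highest in 2208L. Socs1 did not share this, with means of 0.80 in 2151R, -0.48 in 2208L and -2.05 in 2225L. The means of Socs3 were -0.25, 0.38 and -0.94 in the same order. Socs1 and Socs3 are given here after their values were seen. Socs2 ranged from 3.62 to 4.44 in 2208L, was 0.87, 0.88, 0.37 and 0.54 in 2151R, -0.72 and -0.25 in 2225L, and -0.0036 in T11. All 2208L samples lay far above every other sample. Socs2 was lower in 2151R (difference -3.44, limma adjusted p 3.01e-09) and in 2225L (difference -4.58, limma adjusted p 2.2e-08) than in 2208L. Cish, named here after its values were seen, was lower in 2151R (difference -1.81, limma adjusted p 0.00019) and in 2225L (difference -1.38, limma adjusted p 0.013), but the second was not called without 2225L replicate 2 (difference -0.56, limma adjusted p 0.321), without the ROSEN samples (-0.62) or with array weights (-1.30).

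The receptor gene was low with Stat5a in 2225L and was not called in 2151R against 2208L. Prlr, the prolactin receptor, ranged from 1.81 to 2.78 in 2208L and was 1.79, 1.70, 2.70 and 2.35 in 2151R, so these models overlapped, with a difference of -0.21 (95% interval -0.98 to 0.57, limma adjusted p 0.659). It was -1.62 and 0.74 in 2225L, below both models (difference from 2208L -2.77, limma adjusted p 0.0006), and -3.77 in T11. Jak2 was higher in 2151R than in 2208L by 0.71 (limma adjusted p 0.00744), though not with samples titled NT, nt or PBS alone (0.58, limma adjusted p 0.0863). Stat5b, the paralog next to Stat5a, differed by -0.16 between 2151R and 2208L (limma adjusted p 0.585) and was lower in 2225L, at -0.79 and -2.15, by a difference of -1.95 from 2208L (limma adjusted p 0.000275). How reads were shared between these near-identical paralogs is not stated, so their values are uncertain to that extent. Jak2 and Stat5b, like Prlr in 2151R, were named after their values were seen. Cav1, a membrane scaffold known to hold back Jak2, was higher in 2151R by 4.10, and Id2, an inhibitor of DNA binding needed for alveolar growth, was lower by a difference of -2.84 (limma adjusted p 2.82e-07 and 3.77e-07). Igf2, a growth factor downstream of prolactin, was higher in 2225L than in 2208L by 7.72 (limma adjusted p 0.0056), a call lost with a trend in the spread model, with array weights and without the ROSEN samples.

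**Figure D4:**
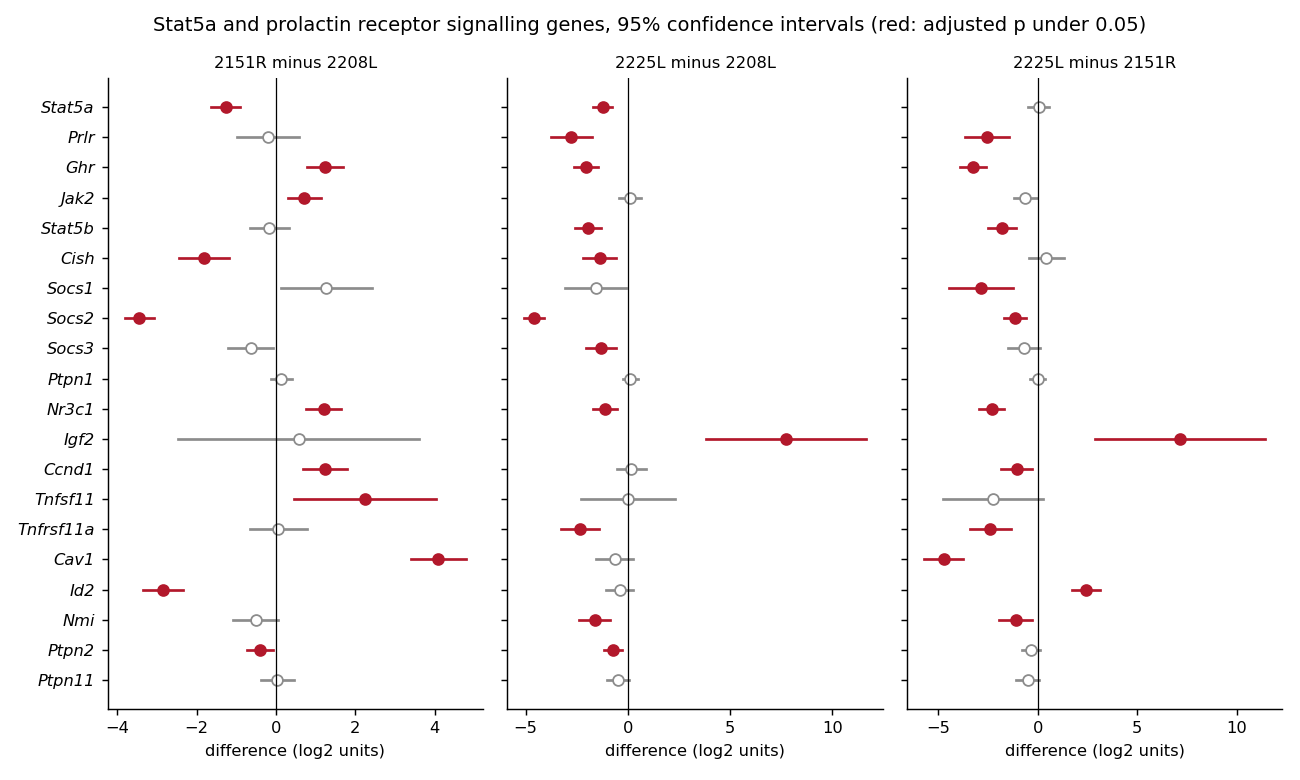
Difference in mean log2 value (x axis, log2 units; the scale differs between panels) of Stat5a and 19 prolactin receptor and Stat5 signalling genes in 3 model comparisons (panels), with the limma 95% confidence interval; filled red points have an adjusted p under 0.05 over all genes. Socs2 and Cish are lower than in 2208L in both other models, while Prlr and Stat5b are lower in 2225L and not called in 2151R against 2208L.

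Of 7 other secreted milk and gland proteins in the table, 5 were lower and 0 higher in 2151R than in 2208L, beside 22.7% and 26.1% of all genes (median difference -3.93 against 0.10). Wfdc18, a small protein related to whey acidic protein, ranged from 3.59 to 5.47 in 2208L, was -7.34, -7.46, -7.05 and -7.75 in 2151R, 1.92 and 1.22 in 2225L, and -11.65 in T11. The models did not overlap at Wfdc18, with 2225L between 2208L and 2151R and T11 lowest. Lcn2, an iron-binding defence protein, differed by -7.38 and Pigr, which carries antibodies into milk, by -5.49 (limma adjusted p 1.15e-09 and 7.14e-05). In 2225L against 2208L, 2 of the 7 were higher and 2 lower, beside 15.6% and 17.3% of all genes, among them Lpo, the milk peroxidase, higher by 2.83 (limma adjusted p 0.00151), although not called after quantile normalization (difference 1.77).

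Of 19 genes of milk fat synthesis and the fat globule in the table, 7 were lower and 2 higher in 2151R than in 2208L (median difference -0.61), beside 22.7% and 26.1% of all genes. In all, 9 were called, a share near the 48.8% of all genes. For 2225L against 2208L, 6 were lower and 1 higher (median -0.47), beside 17.3% and 15.6% of all genes. In either direction the share was again near the 32.9% of all genes called. Muc1, a mucin of the globule membrane, was lower in both, by differences of -4.90 and -3.09 (limma adjusted p 7.54e-09 and 2.9e-05). Xdh, the enzyme that binds butyrophilin in the globule coat, was lower in 2225L than in 2208L by a difference of -2.85 (limma adjusted p 0.00199), while its difference of -0.88 in 2151R was not called (limma adjusted p 0.116; named after its value was seen). Cidea and Mfge8, which act in lipid droplet growth and clearance of dying alveolar cells, were lower in 2151R by differences of -3.78 and -2.60.

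Of 20 luminal lineage regulators, 10 were lower and 5 higher in 2151R than in 2208L (median difference -0.89), beside 22.7% and 26.1% of all genes, led by Tfap2c (-7.85), Sox10 (-7.11) and Elf3 (-6.73). In 2225L against 2208L, 6 were lower and 1 higher, beside 17.3% and 15.6% of all genes, and near the 32.9% called in either direction. In 2225L against 2151R, 10 were higher and 6 lower, beside 22.8% and 25.8%. Gata3, a luminal fate regulator, was lower in 2225L than in 2208L by a difference of -2.90 (limma adjusted p 2.95e-05). Gata3 was higher in 2151R than in 2208L, and is counted among the 5. Of the 13 alveolar transport genes, 10 were lower and 3 higher in 2151R (the same 22.7% and 26.1% of all genes apply), among them the zinc transporter gene Slc30a2 (difference -8.94) and the water channel gene Aqp5 (-6.84), whereas 3 were higher and 2 lower in 2225L against 2208L, beside 15.6% and 17.3% of all genes. Of the 12 alveolar and luminal progenitor markers, 8 were lower and 0 higher in 2151R (median difference -3.08), and 5 were lower and 1 higher in 2225L (median -1), beside those same shares of all genes. Slpi and Trf, secreted products of these cells, were lower in both models, Slpi by differences of -6.62 and -3.92 and Trf by -5.67 and -3.78.

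Across the 15 samples, Elf5 was most like Sox10, Ehf, Esrp1, Prss8 and Col9a2 (Pearson r from 0.987 to 0.992), and Stat5a most like Abhd2, Cpd, Slc12a2, Pip4k2c and Slc45a3 (0.965 to 0.972). Btn1a1 was most like Aifm2, Frk, Chp1, Gbp3 and Slc22a23 (0.900 to 0.928). The best matches of Csn2 were weaker (0.695 to 0.707): Slc22a29, Muc4, Cdh6, Cdhr1 and Clca3a2. Among the 7 genes themselves, r was highest for Lalba with Stat5a (0.8475), and was 0.838 for Csn3 with Csn1s1 and with Lalba. It was 0.823 for Csn3 with Elf5, 0.822 for Csn2 with Csn1s1, and between -0.26 and 0.28 for Btn1a1 with each of the other 6. Every r includes the 1 sample of T11, whose Elf5 value was -12.42. These values describe samples that share models, library ranges and 1 scaling.

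Genes beside Elf5 and Stat5a, looked up after the values were seen, differed from them to varying degrees. Ehf, an Ets factor gene close to Elf5 on chromosome 2 (chr2:103263431-103303275), was lower in 2151R than in 2208L by a difference of -5.99 (limma adjusted p 1.49e-09), and differed by 0.49 between 2225L and 2208L (limma adjusted p 0.329). Cat, the catalase gene on the other side of Elf5, differed by 0.17 between 2151R and 2208L, which was not called, and was higher in 2225L than in 2208L by 1.85 and than in 2151R by 1.67. BC016548, which lies between Ehf and Elf5, was lower in 2151R than in 2208L by a difference of -3.91 and was not called in 2225L against 2208L (-0.51). Stat3, which lies on the other side of Stat5a from Stat5b and drives involution of the gland after weaning, was lower than in 2208L in 2151R (difference -1.86, limma adjusted p 4.93e-08) and in 2225L (-0.81, limma adjusted p 0.00192).

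Within 2208L, Csn3 was the only one of the 7 genes called between the 4 samples titled PBS and the 3 titled 3day nt, beside 34% of all genes, 17.4% higher and 16.5% lower in PBS. Its values were 6.58, 6.34, 7.11 and 7.25 in PBS samples and 5.27, 4.90 and 4.32 in 3day nt samples, and 7.11 in the ROSEN sample. The subsets did not overlap at Csn3 or at Btn1a1, both higher in PBS, beside 44.8% of all genes, 21% higher and 23.8% lower, and the ROSEN sample lay with PBS in Csn3. Csn3 was higher in PBS samples by 1.99 (SE 0.31, limma adjusted p 0.00653). Muscle marker levels were high in replicates 6 and 8 of the 3day nt samples (8.80 and 8.17). Replicate 7, also titled 3day nt, was at 0.23, within the range of PBS samples (-3.90 to 1.51). Adipocyte marker levels ran from -3.98 to 1.58 in PBS and from 1.24 to 1.88 in 3day nt samples, with overlap. B cell and lymph node markers did not overlap (-0.83 to -0.24 in PBS and 0.20 to 0.77 in 3day nt), with 2 of 7 lower in PBS, Ccr7 and Cd79a (differences -2.40 and -1.56, limma adjusted p 0.0227 and 0.028). Their part in the Csn3 difference was not tested. Without 2208L replicates 6 and 8, the muscle-high samples, 1 sample titled 3day nt is left that is assumed to vary like the PBS samples, and the difference was 1.92 (limma adjusted p 0.127). The other 6 genes differed between the subsets by -0.52 (Csn1s1) to 1.04 (Btn1a1), and Csn1s1 was the only casein with a higher mean in 3day nt samples, by a difference that was not called (limma adjusted p 0.288) and that had the other sign (0.35) after quantile normalization. Of the prolactin receptor and Stat5 signalling list, 3 genes were higher, 3 lower and 13 not called in PBS samples, near the 34% of all genes called. Prlr was higher in PBS by 0.56 and Cish lower by a difference of -0.67 (limma adjusted p 0.0459 and 0.0295); without replicates 6 and 8 these were 0.27 and -0.38 and were not called, and Prlr was not called without any 1 of replicates 2 to 6 or 8, nor Cish without any 1 of 2, 3, 6 or 8. Subset and library number range cannot be told apart.

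Single samples were examined for signs of mammary gland tissue taken with the tumour. In 2151R replicate 1, chosen after its Csn2 value was seen, Csn2 exceeded the median of the other 3 samples of that model by 5.43 and Csn1s1 by 2.31, which ranked 8 and 30 among the 17271 genes. The title of this sample carries an unexplained code, as does that of replicate 2, and the part of these codes was not tested. Only 57 genes (0.33%) exceeded that median by 2 or more. The other milk genes did not share this: Csn3 (-0.59), Lalba (-1.15) and Btn1a1 (-0.30) lay below that median, and Elf5 (0.24) and Stat5a (0.22) lay slightly above it. Over all genes the median rise of this sample was 0.14, and 44.7% of genes were above all of the other 3 samples. Of the 7 other milk proteins 0, and of the 12 epithelial markers 0, exceeded that median by 2 or more. Adipocyte markers of this sample were lower than that median (median -1.68 over 10 genes), and the level of B cell and lymph node markers was 0.51, against -0.18 to 0.40 in the other 3. In the muscle-high samples, Csn1s1, Lalba, Stat5a and Elf5 lay within the range of the other samples of their model. The Csn3 and Btn1a1 values of 2151R replicate 3 (3.58 and 2.98) were the highest of that model, and the Csn2, Csn3 and Btn1a1 values of 2208L replicate 8 (0.88, 4.32 and -0.21) were the lowest of its model.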

How the data were processed

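RNA from 15 mouse mammary tumours was sequenced from poly(A) libraries (Illumina TruSeq), per the labels' protocols. The authors deposited 1 table of centred log2 values for 17271 gene symbols. STAR, Salmon and the build mm10 are named in the submitters' processing notes, without versions or roles; the annotation, scaling, offset and centring reference are not given in the sources used here. The log2 unit is read from the name of the table. Titles gave each sample its model, and replicates were numbered in accession order, which pairs no samples.

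The R package limma (version 3.58.1; R 4.3.3) fitted all genes without a trend, with 1 mean per model over all 15 samples, or over the 7 samples titled PBS or 3day nt for the subset comparison. A gene is called at a Benjamini-Hochberg adjusted p under 0.05 over all 17271 genes. The fit was tested on simulated data. An exact value shared by samples occurs in 727 genes, among the 7 genes here in Csn2 only. Named genes are the members, up to 3 called genes of largest difference per list and comparison, and the 5 genes of highest Pearson r with Csn2, Elf5, Stat5a and Btn1a1; others are marked. Members and lists were chosen with earlier results of these data known. Alternatives were other scalings, spread models, gene filters, sample weights and sample choices.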

Additional observations from a re-analysis of the deposited data

Results flagged for a closer look

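Of 66 groups of 4 or 8 samples examined for a sample far from the others (7 genes and 15 list levels in 2151R, 2208L and 2208L PBS), 3 had one, and chance flags about 1 in 20 groups. The skeletal muscle marker level of 2151R replicate 3 was 5.37, with the other 3 samples from -3.70 to -3.54. Within 2208L PBS, Csn2 was 0.99 in replicate 3, with the others from 3.17 to 3.59. In the same subset Btn1a1 was 2.86 in replicate 2, with the others from 0.90 to 1.09. No explanation was tested.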

How the results depend on the processing

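No paired analysis was possible because no title matches a sample of one group with a sample of another. The scalings tried for T11 were chosen after seeing the data. Under other scalings, spread models, filters and sample choices, Elf5, Stat5a, Csn3, Csn1s1 and Lalba stayed called and lower in 2151R than in 2208L (22 alternatives each), as did Stat5a in 2225L (21). Leaving out genes with a repeated value gives no value for Csn2. A fit that leaves 1 sample in a group assumes that it varies like the others.

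The 1 gene higher in 2151R than in 2208L (Btn1a1) became 0 with samples centred on their medians, quantile normalization, array weights, without the muscle-high samples, or in samples titled NT, nt or PBS, and 0 to 1 without single samples. Of the 4 genes lower in 2225L than in 2208L, 1 remained with array weights and 2 to 4 without single samples, with 0 to 1 higher. Genes higher in PBS than in 3day nt samples numbered 4 with array weights, 0 without the muscle-high samples and 1 to 2 without single samples.

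Over all genes in 2151R against 2208L (4508 higher, 3926 lower), a minimum difference of 1 left 2585 and 2566, and samples titled NT, nt or PBS left 2658 higher. Array weights gave 958 higher and 1200 lower in 2225L than in 2208L (2693 and 2994 without weights), and 2529 and 2723 in 2225L than in 2151R (3934 and 4464). For PBS against 3day nt (3007 and 2857), array weights gave 5938 and 5754, a minimum difference of 1 gave 1206 and 1002, leaving out the muscle-high samples gave 76 and 22, and single samples left out gave 1362 to 3988 higher and 1017 to 3111 lower, the fewest without replicate 8 and few without replicate 6 (1723 and 1227), with 1844 and 1780 lower without replicates 2 and 3.

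Differences that were not called changed sign. For 2225L minus 2151R, quantile normalization gave -0.028 for Csn2 and -0.49 for Lalba, and array weights 0.047 for Csn3 and -0.018 for Stat5a. Without single samples they ran from -0.83 to 1.96 (Csn2), -1.08 to 1.28 (Lalba), -0.29 to 1.94 (Csn1s1), -1.14 to 0.56 (Csn3) and -0.0092 to 0.088 (Stat5a). For PBS minus 3day nt, Elf5 was 0.039 with samples centred, 0.090 with quantile normalization and 0.026 with array weights, Csn1s1 was 0.35 with quantile normalization, and without single samples Elf5 ran from -0.13 to 0.13 and Lalba from -0.18 to 0.66. In 2151R minus 2208L, Stat5b was 0.026 without the muscle-high samples and Prlr 0.18 in samples titled NT, nt or PBS. Without 2225L replicate 1 or 2, Jak2 was -0.30 or 0.48 against 2208L, and Cish -0.39 or 1.25 against 2151R (called, limma adjusted p 0.0285). The cause was not tested.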
